A study of Mus musculus with 35 samples.

Results

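Collagens, laminins and the genes that assemble them were followed in the mouse hippocampus after intra-amygdala kainic acid. The 39 genes are those of a fixed list of symbols, all found among the 32544 gene rows of the count tables. They fall into 6 fibrillar collagen genes, 2 type IV collagen genes, 6 genes of other collagens, 6 laminin chains, 6 matrix glycoproteins and proteoglycans, 8 enzymes or chaperones that fold and cross-link collagen, 1 integrin chain that binds matrix, and 4 genes of metalloproteinases and their inhibitors. The rule that picks them uses symbols alone, but the list was chosen with earlier results of these data known. Shares of members set beside those of all genes are therefore descriptive. The mice were young adult C57BL/6JOlaHsd males. In the treated animals kainic acid (KA), a glutamate receptor agonist, was injected into the amygdala to trigger status epilepticus, which was later curtailed with lorazepam, and controls received PBS by the same route. The hippocampus was taken 24 hours or 2 weeks after the injection, and each library came from 1 mouse. RNA was sequenced as total RNA (input libraries) and after immunoprecipitation with an antibody against N6-methyladenosine (m6A libraries), which enriches fragments that carry this base modification. An m6A library therefore varies with both the amount of a transcript and its methylation, and its counts were not divided by the input here.

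The matrix of the brain lies mainly around vessels, in the meninges and in the diffuse net between cells. Fibrillar collagens are made by fibroblasts and related cells of meninges and vessel walls, type IV collagens and laminins build the basement membrane of vessels, and fibronectin and thrombospondin are deposited when tissue is injured. Newly made collagen chains are hydroxylated by prolyl and lysyl hydroxylases, folded with the chaperone encoded by Serpinh1, secreted, and then cross-linked by lysyl oxidases. In bulk tissue of this kind, fewer or more cells of a type and less or more RNA per cell cannot be told apart.

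Windows at the starts of 4 of these genes are printed first, because the results below return to them: the start shared by the type IV pair, a fibrillar gene with a start rich in G and C, one with a start poor in them, and the collagen chaperone. Of the 39 genes, 23 had an entry in the RefSeq table of promoter windows (GRCm38.p6, the assembly called mm10), each 300 bases long, lying mostly upstream of the start and ending just past it. Capitals mark the GC box (GGGCGG), the CCAAT box (CCAAT) and the TATA box (TATAAA), each searched on both strands, and none of the marked letters overlap another motif. The windows are given 5′ to 3′ on the gene's own strand. They lie at chr8:11312555-11312854 on the plus strand (Col4a2), chr6:4505368-4505667 on the plus strand (Col1a2), chr1:45311288-45311587 on the plus strand (Col3a1) and chr7:99353190-99353489 on the minus strand (Serpinh1).
Col4a2: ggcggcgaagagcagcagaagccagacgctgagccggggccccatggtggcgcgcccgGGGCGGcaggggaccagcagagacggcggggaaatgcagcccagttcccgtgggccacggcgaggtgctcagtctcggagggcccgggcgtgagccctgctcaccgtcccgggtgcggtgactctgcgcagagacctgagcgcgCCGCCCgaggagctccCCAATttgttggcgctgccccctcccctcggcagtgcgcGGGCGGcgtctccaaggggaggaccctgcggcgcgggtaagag
Col1a2: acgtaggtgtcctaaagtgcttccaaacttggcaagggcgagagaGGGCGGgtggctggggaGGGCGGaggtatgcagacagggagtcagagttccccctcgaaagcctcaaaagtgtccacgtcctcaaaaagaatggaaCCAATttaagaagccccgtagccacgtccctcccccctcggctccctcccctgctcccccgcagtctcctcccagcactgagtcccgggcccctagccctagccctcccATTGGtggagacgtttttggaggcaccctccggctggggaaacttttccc
Col3a1: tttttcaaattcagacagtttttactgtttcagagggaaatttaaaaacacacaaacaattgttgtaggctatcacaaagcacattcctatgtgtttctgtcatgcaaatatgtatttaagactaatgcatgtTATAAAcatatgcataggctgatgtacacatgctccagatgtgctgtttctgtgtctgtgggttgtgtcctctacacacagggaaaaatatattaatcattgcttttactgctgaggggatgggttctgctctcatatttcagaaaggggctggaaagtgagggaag
Serpinh1: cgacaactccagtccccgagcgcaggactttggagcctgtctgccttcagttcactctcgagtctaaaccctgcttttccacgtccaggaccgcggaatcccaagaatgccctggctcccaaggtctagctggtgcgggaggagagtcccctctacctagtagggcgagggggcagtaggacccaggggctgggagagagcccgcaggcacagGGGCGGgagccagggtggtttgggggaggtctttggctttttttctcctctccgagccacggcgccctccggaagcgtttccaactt
The Col4a2 window is 73.7% G and C and holds 3 GC boxes and 1 CCAAT box. It also contains the start of Col4a1, which runs the other way: the 2 starts used for the windows, 11312826 for Col4a1 and 11312805 for Col4a2 on chromosome 8, lie 21 bases apart. The Col1a2 window (61.0% G and C) holds 2 GC boxes and 2 CCAAT boxes, the Col3a1 window (37.7%) 1 TATA box and no GC box, and the Serpinh1 window (62.3%) 1 GC box. A GC box was found in 19 of the 24 windows of these genes (Col6a2 has 2 windows) and in 35.7% of all 32851 windows. The CCAAT box was in 8 of the 24 against 37.4% of all, and the TATA box in 3 of the 24 against 13.6%.

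The m6A set comprised 19 libraries with 1652933 to 34564536 counts, 5 of KA and 3 of PBS at 24 hours, and 6 of KA and 5 of PBS at 2 weeks. Of 16 input libraries, 3 held fewer than 100000 counts and were left out. The 13 that remained, with 3057578 to 12694434 counts, were 3 KA and 1 PBS at 24 hours and 6 KA and 3 PBS at 2 weeks, so that the 24-hour input comparison rests on a single control. The m6A column names start with 3, 4 or 5, and these prefixes are not spread evenly: prefix 3 holds KA mice only, prefix 4 holds 2 KA and 2 PBS mice at 24 hours but PBS mice only at 2 weeks, and prefix 5 holds 1 PBS mouse at 24 hours and 3 KA and 3 PBS mice at 2 weeks. The names state the assay for 8 of the 35 libraries. The other 27 were read as m6A where the name has such a prefix and as input where it has none, since 16 of the 19 mice have a library of each form. What the prefix stands for is not given in the sources used here, and below it is called the library set. KA mouse 8 (24 hours) stood apart in both assays, with 28496 and 28574 genes with counts and 16.4% and 17.4% of counts in mitochondrial and ribosomal RNA genes, and the m6A library of KA mouse 6 (2 weeks) was similar, with 27003 genes and 17.5%. Hippocampal markers were present in each library, with no marker of the 12 listed at 0 in any comparison. Levels are given as counts-per-million values (CPM). The summed level of these markers in m6A libraries at 24 hours was 866 to 1856 CPM in KA and 1752 to 2015 in PBS.

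No member passed an adjusted p of 0.05 (edgeR quasi-likelihood test, Benjamini-Hochberg over all genes) in any of the 4 comparisons of KA with PBS, but most estimates lay above 0. At 24 hours, 33 of 39 m6A log2 fold changes were above 0, with a median of 0.43 against 0.08 for all 16470 genes tested, and 0.00607% of all genes were called. At an unadjusted p under 0.05, 7 of the 39 were higher after KA (4.02% of all genes) and none was lower. Without PBS mouse 71 that count was 4 (3.37% of all genes in either direction), and without PBS mouse 73 the median was 0.70. DESeq2 called 2 of the 39 (0.947% of all genes) and voom with sample weights 9 (6.8%). At 2 weeks the m6A libraries gave 28 of 39 above 0, a median of 0.26 (all genes, -0.0013), and 5 higher at an unadjusted p under 0.05 (2.85% of all genes), with no member and 0% of genes called by edgeR and no member called by DESeq2 or voom. These 5 depended on the libraries used. With the library set as a block 1 was higher (3.14% of all genes in either direction). Within set 5 and with library size scaling 2 were (3.68% and 5.19%). Without any one of PBS mice 50, 78 and 3 or KA mice 42, 5 and 7 the count was 3. In those fits from 531 of 16066 genes (without KA mouse 7) to 1095 of 16004 (without KA mouse 42) lay under that p. Without mouse 42, 1 member was also lower.

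Among input libraries at 24 hours, 37 of 39 were above 0 and the median was 1.19, while the median of all 18918 genes was itself 0.30. Relative to that shift the members' median was still higher, and 8 of the 39 were higher at an unadjusted p under 0.05 (1.49% of all genes). With library size scaling the median of all genes was 0.015, that of the members 0.91, and 5 were higher (2.72% of all genes in either direction). None was called by edgeR (0% of genes) or DESeq2, and 11 by voom (3.15% of genes). At 2 weeks, 35 members passed the filter on low counts in input libraries and Col5a3, Lox, Loxl1 and Mmp2 did not. Of these 35, 31 were above 0, with a median of 0.45 against 0.02 for all 13752 genes. At an unadjusted p under 0.05, 10 were higher (8.41% of all genes) and 1 lower (5.69%), and again none was called by edgeR (0%) or DESeq2, while voom called 1, Dcn (2.49% of genes). The count of 10 fell to 4 without PBS mouse 4, 5 without PBS mouse 3 and 6 without KA mouse 42, each with 1 lower, where 8.34%, 6.28% and 10.7% of all genes lay under that p in either direction, against 14.1% with all 9 libraries. It was 19 with the library set as a block (17% of all genes). For input, the set is whether the library name begins with the word input. At 2 weeks the set with that word held KA mice 6, 7 and 9 only. That block therefore draws the KA effect from the other set alone and is not a separate check. Without KA mouse 21 the median was 0.30. Of the 35 members tested in all 4 comparisons, 21 had an estimate above 0 in each and none had an estimate below 0 in each. The share of all genes above 0 in all 4 was not computed. For single comparisons, all-gene estimates above 0 in m6A libraries were 9550 of 16470 at 24 hours and 8052 of 16157 at 2 weeks. In input they were 12613 of 18918 and 7204 of 13752. Input and m6A libraries of a mouse come from the same hippocampus, so the assays are not separate evidence.

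**Figure D1:**
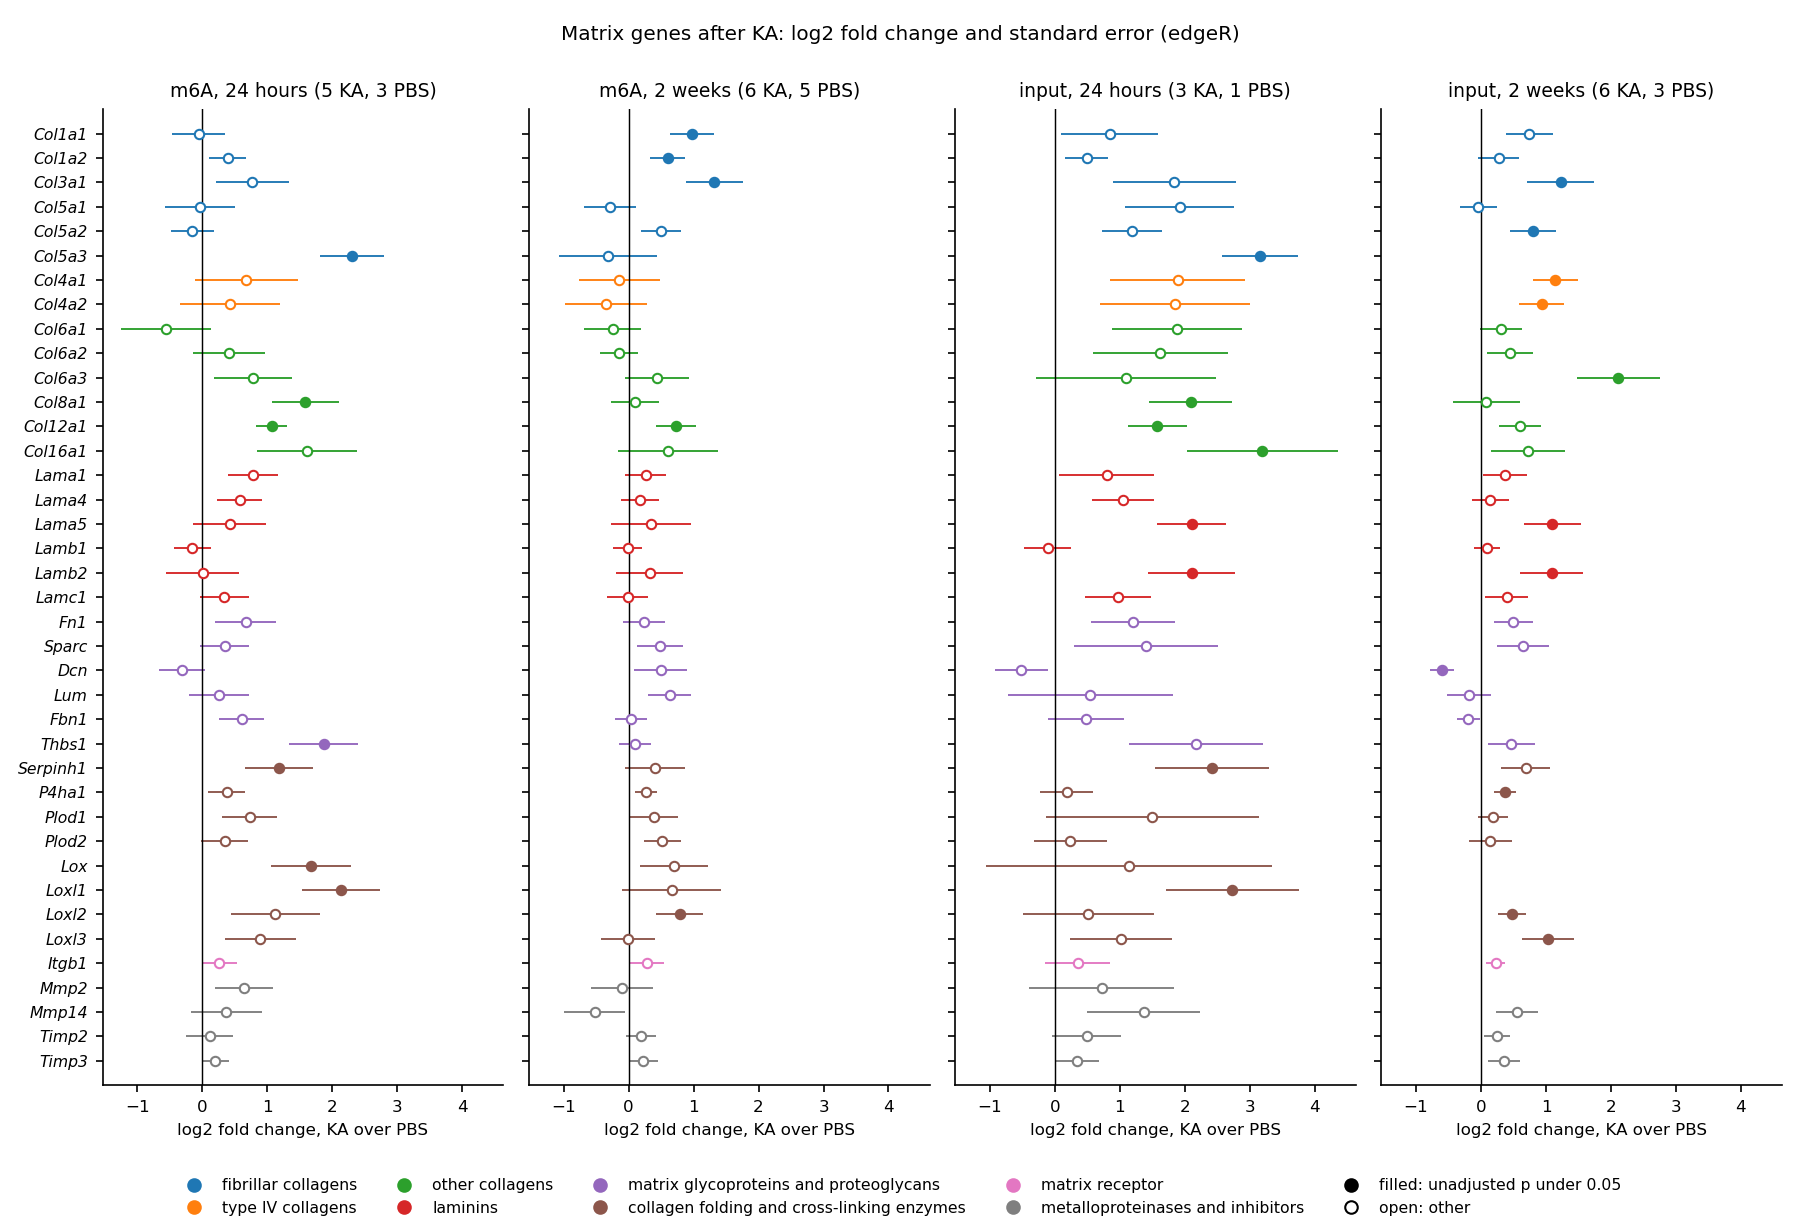
Log2 fold change of KA over PBS (x axis) for the 39 genes (y axis, grouped by colour) in the 4 comparisons; bars are standard errors from edgeR, filled points have an unadjusted p under 0.05, and 4 genes below the count filter have no point in the last panel. Most points lie right of 0 in each panel, with 33, 28, 37 and 31 above 0, and none passed the adjusted threshold.

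Values below are CPM after TMM scaling, and the mice are given in a fixed order. For KA at 24 hours this is 67, 98, 97, 79 and 8 in m6A libraries and 67, 98 and 8 in input. For PBS at 24 hours it is 71, 73 and 1 in m6A libraries, with mouse 1 alone in input. For PBS at 2 weeks it is 50, 78, 2, 3 and 4 in m6A libraries and 2, 3 and 4 in input. For the 6 KA mice at 2 weeks the lowest, median and highest values are given. Fold changes are log2 with their standard error (SE), and the adjusted p is edgeR's over all genes tested.

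Among fibrillar collagens, the genes for types I and III had estimates above 0 at 2 weeks in both assays, with overlapping groups, while Col5a3, a minor chain of type V, was the member with the smallest p at 24 hours. Col5a3 (chr9:20770050-20815117) was at 9.86, 20.02, 21.2, 10.4 and 6.03 CPM in m6A libraries of KA mice at 24 hours and 3.38, 3.04 and 1.64 in PBS. Each KA library was above each PBS library, and the log2 fold change was 2.30 ± 0.50, adjusted p = 0.254. In input it was at 8.98, 10.2 and 6.75 after KA and 0.955 in the PBS mouse, a difference of 3.16 ± 0.59, adjusted p = 0.991. The groups overlapped by 2 weeks, when m6A values after KA had a median of 0.962 (range 0.488 to 7.55, highest in mouse 42), against 3.47, 5.09, 0.418, 0.940 and 3.21 in PBS (log2 fold change -0.32 ± 0.76). Input values at 2 weeks stayed at or under 2.63 CPM in all 9 libraries and were below the count filter. Across m6A libraries, the KA effect on Col5a3 differed between 2 weeks and 24 hours by -2.63 ± 1.09, adjusted p = 0.9998 on the log2 scale, the estimate being lower at 2 weeks.

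Col3a1 (chr1:45311538-45349706), which encodes the chain of type III collagen, had the smallest p among members in m6A libraries at 2 weeks. There it measured a median of 7.31 (range 5.02 to 21.9, highest in mouse 42) after KA and 6.65, 2.84, 3.97, 3.29 and 1.53 in PBS, a log2 fold change of 1.32 ± 0.44, adjusted p = 0.875. The highest PBS library, mouse 50, exceeded 3 of the 6 KA libraries. Input libraries at the same time gave a median of 8.45 (range 3.15 to 20.4, highest in mouse 42) after KA and 4.30, 1.82 and 5.01 in PBS (1.22 ± 0.51, adjusted p = 0.328). At 24 hours the m6A values were 8.97, 4.25, 13.8, 6.38 and 10.3 after KA and 5.84, 8.52 and 1.34 in PBS (0.76 ± 0.56), and the groups overlapped. The input values were 7.88, 2.82 and 12.6 after KA and 2.18 in the control (1.84 ± 0.95).

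Col1a1 (chr11:94936224-94953042) and Col1a2 (chr6:4505618-4541543) encode the 2 chains of type I collagen, the main fibril of connective tissue. At 2 weeks, m6A libraries had Col1a1 at a median of 21.6 (range 8.23 to 34.8, highest in mouse 42) after KA and 16.8, 10.3, 10.1, 11.4 and 5.80 in PBS (0.97 ± 0.34, adjusted p = 0.875). For input the values had a median of 19.7 (range 11.2 to 40.5, highest in mouse 42) and 12.3, 13.1 and 14.2 (0.74 ± 0.36, adjusted p = 0.377). In each assay 5 of the 6 KA mice lay above every PBS library, and mouse 7 was the lowest, although in input mouse 6 exceeded the highest PBS library only slightly (14.19 against 14.17). At 24 hours Col1a1 showed no such offset in m6A libraries, at 22.9, 13.3, 21.6, 14.0 and 17.0 after KA and 22.9, 25.6 and 6.95 in PBS (-0.06 ± 0.41). The 24-hour input libraries gave 19.8, 7.17 and 25.1 against 9.75 (0.84 ± 0.74).

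Col1a2 followed at 2 weeks in m6A libraries. Its values there had a median of 51.2 (range 29.0 to 72.2, highest in mouse 6) after KA and 41.5, 41.7, 35.4, 29.2 and 19.4 in PBS (0.60 ± 0.27, adjusted p = 0.875). Input at 2 weeks gave a median of 52.8 (range 28.9 to 96.3, highest in mouse 21) and 48.8, 32.5 and 58.6 (0.27 ± 0.31), with overlapping groups. The 24-hour values were 32.3, 37.6, 50.2, 37.5 and 64.0 after KA and 33.3, 39.02 and 29.8 in PBS for m6A (0.39 ± 0.28), and 44.9, 39.7 and 41.9 against 30.00 for input (0.49 ± 0.33). The remaining type V chains, Col5a1 and Col5a2, had m6A log2 fold changes of -0.04 and -0.16 at 24 hours and -0.28 and 0.50 at 2 weeks. In input they were at 1.93 and 1.19 at 24 hours and -0.04 and 0.80 at 2 weeks, the last with an unadjusted p under 0.05. The family's median was 0.17 and 0.55 in m6A libraries and 1.51 and 0.74 in input, at 24 hours and 2 weeks.

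**Figure D2:**
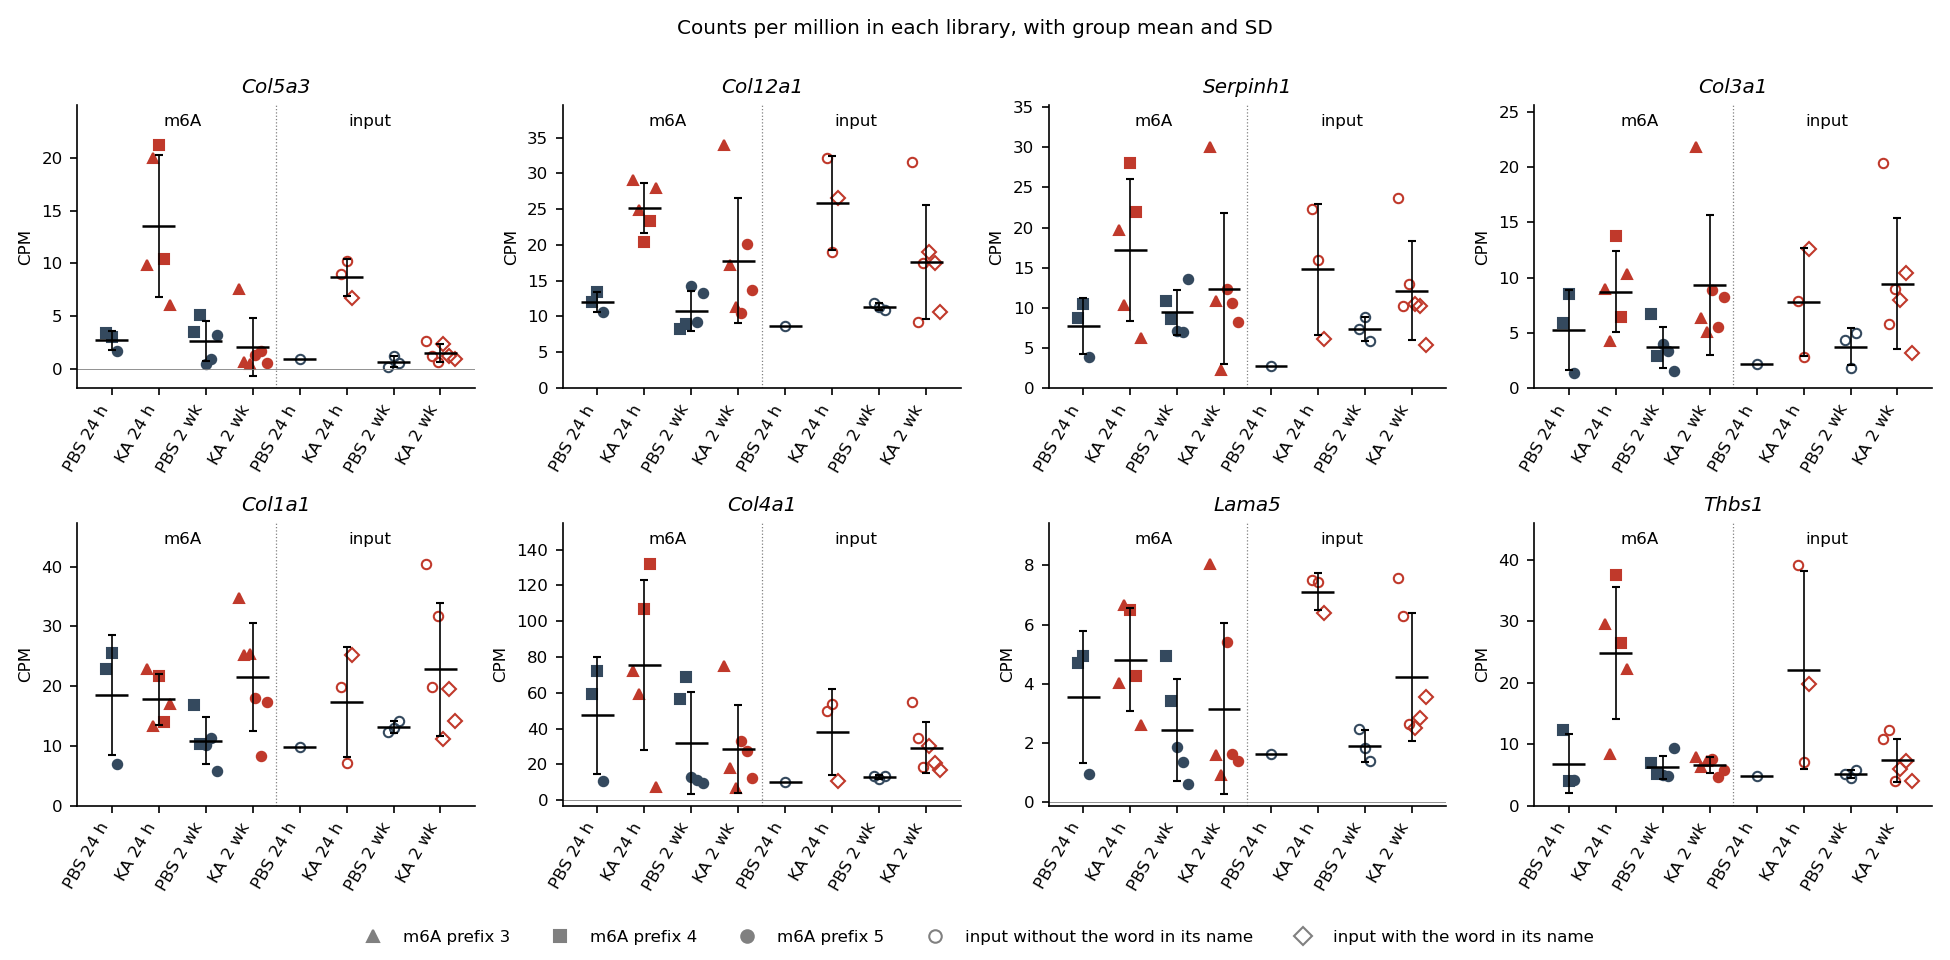
CPM after TMM scaling (y axis, linear) of 8 genes in each library, by treatment and time (x axis), with m6A libraries as filled and input libraries as open symbols, KA in red and PBS in dark blue; symbol shape gives the library set, the line the group mean and the bar the SD, with no SD for the single 24-hour PBS input library. Col5a3 and Col12a1 of KA mice lie above all PBS m6A libraries at 24 hours, and Col4a1 of PBS m6A libraries splits into squares at 56.5 to 72.3 and circles at 9.62 to 13.01.

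The 2 type IV genes varied together, with input estimates above 0 and m6A levels of PBS mice that split between library sets 4 and 5. Set 3, with KA mice only, did not hold to 1 level: its Col4a1 ran from 6.73 to 75.2 CPM at 2 weeks. Col4a1 (chr8:11198423-11312889) and Col4a2 (chr8:11312805-11449287) encode the chains of the main basement membrane collagen, and their spans overlap at their starts, so reads there cannot be told apart if counting ignored strand. Input libraries at 2 weeks gave Col4a1 at a median of 25.7 (range 16.9 to 54.6, highest in mouse 42) after KA and 13.3, 11.9 and 13.8 in PBS, with no overlap (1.15 ± 0.35, adjusted p = 0.266). Col4a2 gave a median of 25.4 (range 16.2 to 56.3, highest in mouse 42) and 16.6, 15.2 and 13.8 (0.93 ± 0.35, adjusted p = 0.296), overlapping at 1 KA library. At 24 hours the KA input libraries were 49.9, 53.8 and 10.6 for Col4a1 and 42.4, 55.1 and 7.80 for Col4a2, against 10.2 and 9.68 in the control. Mice 67 and 98 were well above the control, whereas mouse 8 was near it for both genes.

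The 24-hour m6A libraries had Col4a1 at 72.2, 59.5, 107, 132 and 7.29 after KA and 59.5, 72.3 and 10.5 in PBS (0.67 ± 0.79, adjusted p = 0.983). Col4a2 was at 70.4, 95.8, 103, 108 and 7.00 and 73.8, 84.7 and 13.1 (0.43 ± 0.77). The 2 lowest libraries for both genes were KA mouse 8 and PBS mouse 1. At 2 weeks Col4a1 was at a median of 22.9 (range 6.73 to 75.2, highest in mouse 42) after KA and 56.5, 68.8, 13.01, 11.5 and 9.62 in PBS (-0.14 ± 0.63), and Col4a2 at a median of 21.2 (range 5.23 to 95.9, highest in mouse 42) and 67.7, 86.7, 15.9, 18.3 and 20.2 (-0.35 ± 0.64). PBS mice 50 and 78, both of set 4, exceeded 5 of the 6 KA libraries, and there was no KA library of that set at this time. Within set 5, with 3 KA and 3 PBS mice, Col4a1 turned from below to above PBS, at 1.118 ± 0.36, adjusted p = 0.956, and Col4a2 likewise, at 0.53 ± 0.34, adjusted p = 0.956. Within set 4 at 24 hours, with 2 KA and 2 PBS mice, Col4a1 was at 0.86 ± 0.18, adjusted p = 0.0632.

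**Figure D3:**
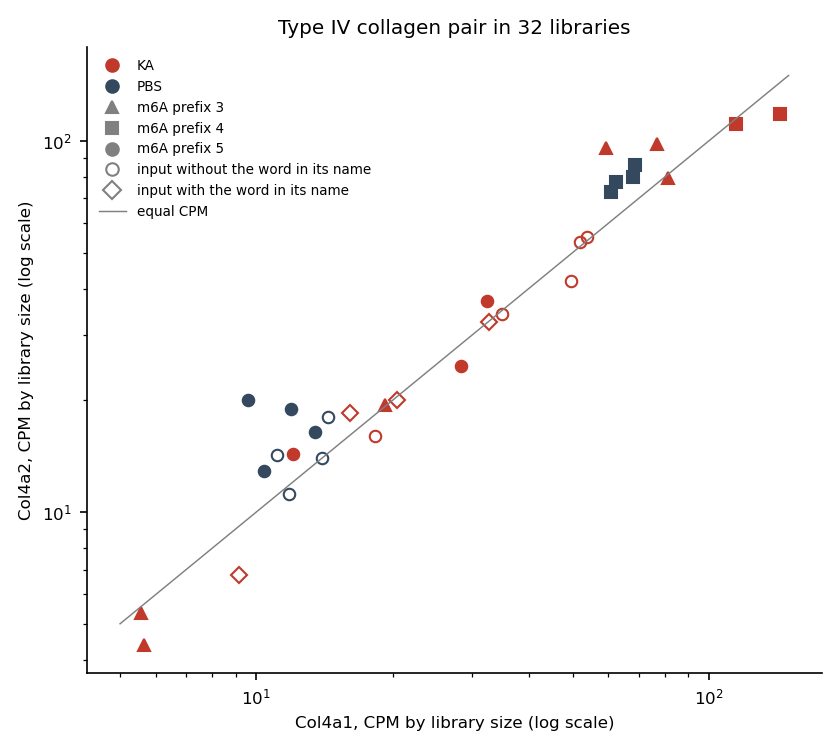
CPM by library size of Col4a1 (x axis, log scale) and Col4a2 (y axis, log scale) in the 32 libraries with 100000 or more counts; colour gives treatment, symbol shape the library set, open symbols input, and the line marks equal CPM. The points follow the line over the range of Col4a1 from 5.56 to 144 CPM, and set 4 libraries lie at the upper end in both treatments.

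Across the 32 libraries the ratio of Col4a1 to Col4a2 counts ran from 0.477 to 1.36, with a median of 0.974, while Col4a1 itself ran from 5.56 to 144 CPM. Pearson's r of the log2 levels was 0.971, given as a description, since libraries share mice and library sets and the genes share the start region printed above.

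Among other collagens, Col12a1 was above PBS in every KA library at 24 hours. Col12a1 (chr9:79598987-79721141), a collagen that associates with fibrils, was at 29.1, 24.9, 20.4, 23.4 and 28.0 in m6A libraries after KA and 11.98, 13.4 and 10.6 in PBS, with no overlap (1.06 ± 0.25, adjusted p = 0.309). Input gave 32.1, 18.96 and 26.5 against 8.66 (1.58 ± 0.46, adjusted p = 0.991). By 2 weeks the groups overlapped, at a median of 15.5 (range 10.4 to 34.0, highest in mouse 42) after KA and 8.19, 8.91, 14.2, 9.17 and 13.3 in PBS for m6A (0.73 ± 0.31, adjusted p = 0.875). Input at 2 weeks gave a median of 17.5 (range 9.22 to 31.6, highest in mouse 42) and 11.9, 11.3 and 10.9 (0.61 ± 0.32). Unlike the type IV pair, Col12a1 did not differ by library set in PBS m6A libraries beyond its error (-0.13 ± 0.21, adjusted p = 0.646).

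Col8a1, a short-chain collagen of vessels, and Col16a1, another fibril-associated collagen, also had 24-hour estimates above 0 in both assays, none of which passed. Col8a1 was at 5.38, 4.85, 11.8, 3.25 and 4.96 after KA and 1.40, 1.75 and 2.99 in PBS in m6A libraries, with no overlap (1.58 ± 0.52, adjusted p = 0.620), and its input difference was 2.09 ± 0.64, adjusted p = 0.991. Col16a1 (chr4:130047817-130099277) was at 56.9, 34.6, 65.4, 51.6 and 5.44 and 16.2, 22.4 and 3.29 (1.61 ± 0.77, adjusted p = 0.982). In input it gave 29.3, 25.9 and 5.47 against 2.18 (3.19 ± 1.16, adjusted p = 0.991). Mouse 8 was the lowest KA library in both assays and lay within the PBS range in m6A libraries. Type VI collagen, a beaded filament of 3 chains, was uneven. Col6a3 (chr1:90766860-90844001) had the smallest p of all members in input at 2 weeks, at a median of 6.65 (range 1.45 to 7.90, highest in mouse 42) after KA and 1.02, 0.913 and 1.38 in PBS with no overlap (2.11 ± 0.64, adjusted p = 0.266), while Col6a1 and Col6a2 were at 0.30 and 0.45. These Col6a3 levels are low, since 3 counts are worth 0.374 to 0.981 CPM in those 9 libraries. The 2-week m6A estimates of the 3 chains were -0.25, -0.15 and 0.43 on the log2 scale.

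Laminins divided by chain, with estimates for Lama5 and Lamb2 well above 0 in input and those for Lamb1 close to 0 in each comparison. Lama5 (chr2:180176373-180225904) encodes an alpha chain of vessel basement membranes, and its input values at 24 hours were 7.52, 7.43 and 6.401 after KA against 1.64 (2.11 ± 0.53, adjusted p = 0.991). At 2 weeks they had a median of 3.19 (range 2.50 to 7.57, highest in mouse 42) and 2.46, 1.82 and 1.38, without overlap (1.10 ± 0.45, adjusted p = 0.316). The m6A libraries gave 4.04, 6.67, 6.499, 4.25 and 2.62 after KA and 4.71, 4.94 and 0.971 in PBS at 24 hours (0.42 ± 0.56). At 2 weeks they gave a median of 1.62 (range 0.906 to 8.03, highest in mouse 42) and 4.94, 3.43, 1.88, 1.35 and 0.611 (0.35 ± 0.61). Both m6A comparisons overlapped, and the higher PBS values were again those of set 4.

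Lamc1, the gamma chain shared by most laminins, was at 44.2, 36.6 and 22.1 after KA and 17.4 in the control in 24-hour input (0.98 ± 0.51). Its 2-week input values had a median of 23.8 (range 17.6 to 48.4, highest in mouse 42) and 26.4, 21.0 and 19.2 (0.39 ± 0.32). For m6A, Lamc1 was at 51.1, 36.4, 59.7, 55.3 and 24.1 after KA and 41.0, 46.9 and 19.6 in PBS at 24 hours (0.34 ± 0.38), and at a median of 25.3 (range 21.4 to 50.4, highest in mouse 42) and 48.3, 42.1, 26.9, 17.3 and 17.0 at 2 weeks (-0.02 ± 0.32). Within set 5 the 2-week estimate was 0.52, above 0. Lamb1, a beta chain, was at 52.0, 35.2, 37.6, 28.5 and 24.5 after KA and 44.8, 39.6 and 33.5 in PBS (-0.15 ± 0.29) in m6A libraries at 24 hours. At 2 weeks the values had a median of 28.3 (range 24.4 to 43.3, highest in mouse 21) and 39.5, 37.8, 30.5, 30.9 and 19.7 (-0.01 ± 0.22). Input Lamb1 was 32.5, 26.9 and 22.8 against 29.5 at 24 hours (-0.11 ± 0.36) and a median of 24.2 (range 19.2 to 37.8, highest in mouse 21) against 26.2, 21.0 and 25.9 at 2 weeks (0.09 ± 0.20). The other beta chain, Lamb2, was at 2.11 ± 0.67, adjusted p = 0.991 and 1.09 ± 0.49, adjusted p = 0.350 in input. Lama1 and Lama4 had estimates above 0 in each comparison, from 0.26 to 0.80 and from 0.14 to 1.05, none with an unadjusted p under 0.05.

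At 24 hours Thbs1 and decorin had the highest and the lowest estimate of the glycoprotein and proteoglycan group in both assays. At 2 weeks decorin was still the lowest in input but not in m6A libraries, and Thbs1 was the highest in neither. Thbs1 (chr2:118111876-118127133), thrombospondin 1, a secreted glycoprotein that binds cells and growth factors, was at 29.6, 8.49, 37.5, 26.4 and 22.3 in m6A libraries after KA at 24 hours and 12.4, 4.03 and 4.11 in PBS (1.87 ± 0.53, adjusted p = 0.519). Only mouse 98 lay within the PBS range. Input gave 39.2, 7.17 and 19.8 against 4.91 (2.17 ± 1.03). At 2 weeks the groups overlapped, with an m6A median of 6.83 (range 4.75 to 7.95, highest in mouse 42) after KA and 6.93, 5.09, 5.01, 4.82 and 9.32 in PBS (0.10 ± 0.25). The 2-week input values had a median of 6.59 (range 3.97 to 12.4, highest in mouse 21) and 5.12, 4.56 and 5.87 (0.47 ± 0.36). Thbs1 had the smallest p among members for a change of the KA effect in m6A libraries from 24 hours to 2 weeks, at -1.77 ± 0.53, adjusted p = 0.9998.

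Dcn (chr10:97479500-97518163) encodes decorin, a small proteoglycan that binds collagen fibrils. It was the only member lower in both input comparisons with no overlap, which at 24 hours means below a single control. At 2 weeks its input values had a median of 26.4 (range 17.5 to 33.2, highest in mouse 21) after KA and 33.8, 45.0 and 39.9 in PBS (-0.60 ± 0.19, adjusted p = 0.266). At 24 hours they were 21.8, 13.1 and 14.7 against 23.7 (-0.52 ± 0.41). The 2-week gap was narrow, with KA mouse 21 at 33.23 and PBS mouse 2 at 33.82. Of all genes, 3.58% lay wholly below PBS in that 2-week comparison. A fit added after the data were examined used the PBS input libraries of both times as controls, without mouse 8. Its 2-week controls were higher in Dcn than the 24-hour control, so it mixes times after injection. In it Dcn was lower by 0.94 on the log2 scale (adjusted p = 0.0466), and 15.8% of all genes were called. The m6A libraries did not share this pattern, with 25.6, 15.8, 11.4, 9.94 and 13.5 after KA and 21.1, 12.02 and 22.5 in PBS at 24 hours (-0.31 ± 0.36). At 2 weeks they gave a median of 23.6 (range 11.5 to 45.0, highest in mouse 21) and 8.40, 10.5, 27.8, 32.7 and 12.98 (0.50 ± 0.41). The KA effect on Dcn at 2 weeks differed between assays by 1.09 ± 0.51, adjusted p = 0.807, the smallest p for that contrast among members. Lumican (Lum), a related proteoglycan, was at -0.18 in input and 0.63 in m6A libraries at 2 weeks.

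Fibronectin (Fn1, chr1:71585473-71653280) and Sparc, a secreted glycoprotein that binds collagen, had estimates above 0 in each comparison. Fn1 in m6A libraries at 24 hours was at 216, 107, 140, 74.4 and 55.8 after KA and 88.6, 95.2 and 40.1 in PBS (0.66 ± 0.47), and in input at 161, 83.5 and 64.4 against 44.5 (1.21 ± 0.65). Its 2-week values had a median of 48.3 (range 33.1 to 137, highest in mouse 42) and 53.8, 64.3, 51.9, 45.3 and 56.8 in m6A libraries (0.23 ± 0.32). Input at 2 weeks gave a median of 53.5 (range 34.3 to 102, highest in mouse 42) and 49.6, 33.2 and 41.5 (0.50 ± 0.29). The groups overlapped in 3 of the 4 comparisons, the exception being the one with a single control. Sparc was at 120, 95.2, 132, 127 and 40.2 after KA and 94.3, 90.1 and 58.9 in PBS for m6A at 24 hours (0.34 ± 0.38) and at 216, 129 and 31.1 against 47.3 for input (1.41 ± 1.11). At 2 weeks Sparc was at a median of 72.0 (range 45.9 to 204, highest in mouse 42) and 68.0, 78.6, 55.1, 65.2 and 63.1 in m6A libraries (0.48 ± 0.35), and at a median of 116 (range 78.7 to 313, highest in mouse 42) and 89.8, 103 and 79.0 in input (0.65 ± 0.40). Fbn1, which encodes the microfibril protein fibrillin 1, was at 0.60 and 0.03 in m6A libraries and 0.47 and -0.20 in input.

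Collagen folding and cross-linking enzymes were the group with the highest m6A median at 24 hours, 1.01, and all 8 of its estimates were above 0. That ranking includes mouse 8, and the ranking without it was not computed. Loxl2 was at 55.2 CPM in mouse 8, 7.28 to 11.1 in the other KA mice and 7.00 to 11.2 in PBS. Plod1 was at 76.8 in mouse 8, 22.4 to 32.7 in the other KA mice and 19.4 to 25.9 in PBS. Serpinh1 (chr7:99345375-99353239), the endoplasmic reticulum chaperone of collagen, was at 19.7, 10.3, 28.1, 21.9 and 6.22 after KA and 8.74, 10.5 and 3.81 in PBS (1.18 ± 0.52, adjusted p = 0.914). Mice 98 and 8 lay within the PBS range. Input Serpinh1 was 22.4, 15.9 and 6.05 against 2.73 (2.42 ± 0.88, adjusted p = 0.991). At 2 weeks it was at a median of 10.8 (range 2.16 to 30.1, highest in mouse 42) after KA and 10.8, 8.62, 7.10, 6.94 and 13.6 in PBS in m6A libraries (0.41 ± 0.47). The 2-week input values had a median of 10.3 (range 5.39 to 23.7, highest in mouse 42) and 7.38, 8.82 and 5.87 (0.69 ± 0.37). Without mouse 42 these 2 estimates were -0.09 and 0.41.

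Lysyl oxidases start collagen cross-linking. Loxl1 was at 4.48, 6.07, 9.40, 9.65 and 2.62 after KA and 2.08, 1.83 and 0.523 in PBS in m6A libraries at 24 hours, with no overlap (2.13 ± 0.60, adjusted p = 0.517). Its input values were 4.03, 3.33 and 2.44 against 0.477 (2.73 ± 1.02, adjusted p = 0.991). Lox itself was scarce: m6A values at 24 hours were 3.59, 0.607, 2.83, 1.61 and 4.86 after KA and 0.922, 0.761 and 0.896 in PBS (1.68 ± 0.62, adjusted p = 0.755), and 3 counts are worth 1.515 and 1.815 CPM by library size in mice 67 and 98. Lox in 24-hour input was 1.47, 0 and 4.77 against 0.955 (1.14 ± 2.21). At 2 weeks the m6A values of Lox had a median of 1.71 (range 1.29 to 3.43, highest in mouse 42) and 0.805, 0.979, 0.626, 0.529 and 3.97 (0.70 ± 0.52). In 2-week input they had a median of 1.73 (range 0.970 to 3.69, highest in mouse 7) and 0.410, 0 and 0.691, every KA library above every PBS library but below the filter on counts. Loxl2 was higher at 2 weeks at an unadjusted p under 0.05 in both assays, at 0.79 ± 0.36, adjusted p = 0.875 in m6A libraries and 0.47 ± 0.22, adjusted p = 0.353 in input. Its highest m6A value after KA was 21.8 in mouse 6, against 9.996 to 13.8 in the other KA mice. The lowest in PBS was 1.68 in mouse 4, against 7.76 to 10.9 in the others. Loxl3 was higher at that p in 2-week input alone (1.03 ± 0.40, adjusted p = 0.299). P4ha1, a prolyl hydroxylase subunit, was at 0.37 ± 0.17, adjusted p = 0.350 in 2-week input, and the lysyl hydroxylases Plod1 and Plod2 at 0.19 and 0.15. Plod1 and Loxl2 were highest in mouse 8 in both assays, at 76.8 and 55.2 CPM in its m6A library and 126 and 32.9 in its input library, above every other 24-hour library.

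Itgb1 encodes the beta chain shared by the collagen, laminin and fibronectin integrins. At 24 hours its m6A values were 70.8, 49.7, 59.0, 66.7 and 49.5 after KA and 42.9, 38.6 and 67.0 in PBS (0.26 ± 0.27), and its input values 72.4, 55.4 and 35.1 against 42.5 (0.35 ± 0.50). The 2-week values had a median of 78.0 (range 65.7 to 89.0, highest in mouse 7) and 38.7, 35.5, 81.3, 61.4 and 103 in m6A libraries (0.29 ± 0.26) and a median of 63.9 (range 53.0 to 76.4, highest in mouse 42) and 59.0, 55.7 and 47.5 in input (0.23 ± 0.15). The 4 estimates lay between 0.23 and 0.35, with overlapping groups each time. Mmp14, the membrane-bound metalloproteinase that cleaves collagen, and Timp2, an inhibitor that also takes part in activating Mmp2, were less even. Mmp14 was at 11.2, 8.49, 21.4, 16.9 and 5.54 after KA and 15.3, 11.3 and 3.29 in PBS in m6A libraries at 24 hours (0.37 ± 0.54) and at 15.8, 8.97 and 3.96 against 3.68 in input (1.37 ± 0.87). At 2 weeks its m6A values had a median of 5.84 (range 1.95 to 10.3, highest in mouse 42) and 16.2, 12.3, 4.25, 4.35 and 3.82 (-0.52 ± 0.47). Its input values had a median of 7.23 (range 3.69 to 9.22, highest in mouse 42) and 6.15, 3.04 and 4.15 (0.55 ± 0.33). The m6A estimate turned to 0.51 within set 5. Timp2 was at 234, 220, 131, 131 and 88.7 after KA and 177, 166 and 103 in PBS in m6A libraries at 24 hours (0.11 ± 0.36), and at -0.39 within set 4. For Timp2 in input the values were 155, 187 and 90.0 against 102 (0.49 ± 0.53). At 2 weeks Timp2 was at a median of 153 (range 103 to 212, highest in mouse 21) and 113, 122, 112, 143 and 202 in m6A libraries (0.19 ± 0.23) and a median of 128 (range 77.4 to 147, highest in mouse 42) and 87.1, 108 and 107 in input (0.25 ± 0.20). Mmp2 and Timp3 had no unadjusted p under 0.05 in any comparison.

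Counting members whose groups did not overlap, 5 of 39 had every KA library above every PBS library in m6A libraries at 24 hours (Col5a3, Col8a1, Col12a1, Loxl1 and Timp3), against 2.87% of all genes. None did at 2 weeks (0.452% of all genes). In 2-week input 3 of the 35 tested members lay wholly above PBS (Col4a1, Col6a3 and Lama5, against 3.67% of all genes) and 1 wholly below (Dcn, against 3.58%). For Lama5 the gap was slight, with KA mouse 7 at 2.498 and PBS mouse 2 at 2.46. For Col6a3, KA mice 6 and 9 were at 1.446 and 1.677, close to PBS mouse 4 at 1.382. On levels per kilobase of transcript in the PBS input libraries at 2 weeks (n = 3), Sparc was highest at 39.2 ± 5.25 (SD), then Timp2 at 26.9 ± 3.16 and Timp3 at 14.2 ± 2.45, which lies within the spread of P4ha1 at 13.2 ± 1.67. Col5a3 and Lox were the lowest, at 0.105 ± 0.0838 and 0.0768 ± 0.0727, which do not differ beyond their spread.

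The direct comparison of the times, in 1 fit of all 19 m6A libraries, asked whether the KA effect changed between 24 hours and 2 weeks. No member passed (0.00573% of all genes were called, and DESeq2 and voom called no member), and 3 of 39 had an unadjusted p under 0.05 (2.45% of all genes), all lower at 2 weeks: Col5a3, Thbs1 and Col8a1, the last at -1.50 ± 0.63, adjusted p = 0.9998. The median of the 39 was -0.33 and that of all genes -0.11. The members' median depended on single libraries: it was -0.14, -0.17, -0.21 and -0.22 without PBS mouse 50, PBS mouse 2, KA mouse 9 and PBS mouse 78, and -0.59 and -0.54 without PBS mouse 73 and KA mouse 42. Without mouse 42, 5 members were lower at an unadjusted p under 0.05 (3.47% of all genes in either direction), and only 1 was without KA mouse 97 (2.39%). A difference between the times was therefore not shown for any member. The comparison of assays at 2 weeks asked whether the KA effect differed between m6A and input libraries. It called no member and 0% of genes (nor did DESeq2 or voom call a member), and 1 of 39 had an unadjusted p under 0.05 (4.06% of all genes). After Dcn, the smallest p belonged to Col6a3 (-1.73 ± 0.89, adjusted p = 0.807) and Lox (-1.60 ± 0.93, adjusted p = 0.807). The type IV pair was at -1.31 ± 0.89, adjusted p = 0.807 and -1.30 ± 0.90, adjusted p = 0.807. That fit includes the m6A libraries of PBS mice 50 and 78, both of set 4, which have no input library. In the 9 mice with both libraries and no block, Col4a1 was at 0.20 and the members' median at -0.051. With all libraries the median of the members was -0.17 against -0.04 for all genes. The median moved most when a library of mouse 42 was left out. Without its m6A library the members' median was -0.59, with 5 members lower and 1 higher at an unadjusted p under 0.05 (12% of all genes in either direction) and none past the adjusted threshold, and without its input library the median was -0.050. Leaving out other single libraries gave medians from -0.32 (input, PBS mouse 2) to -0.10 (m6A, KA mouse 6).

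More members differed between library sets than between treatments at the adjusted threshold. Among the 8 m6A libraries of PBS mice, 4 of set 4 (mice 71, 73, 50 and 78) were compared with 4 of set 5 (mice 1, 2, 3 and 4), a contrast added after the data were seen. In it 19 of 39 members were higher in set 4 at an adjusted p under 0.05 (19.9% of all 15840 genes) and 2 were lower (20.7% of all genes). Col4a1 ranged from 56.5 to 72.3 CPM in set 4 and from 9.62 to 13.01 in set 5 (2.53 ± 0.15, adjusted p = 6.8e-06). Col4a2 ranged from 67.7 to 86.7 and from 13.1 to 20.2 (2.23 ± 0.17, adjusted p = 2.39e-05). Loxl1 (2.20 ± 0.43, adjusted p = 0.00262), Col16a1 (2.10 ± 0.25, adjusted p = 0.000173), Lama5 (1.87 ± 0.33, adjusted p = 0.00152) and Mmp14 (1.83 ± 0.20, adjusted p = 0.000111) followed, and the 2 lower members were Itgb1 (-0.99 ± 0.17, adjusted p = 0.00126) and Plod2 (-0.73 ± 0.19, adjusted p = 0.0107). With time as a covariate 15 were higher (18.6% of all genes) and 2 lower (18.5%). The sets hold different mice, so set and cohort of animals cannot be told apart.

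**Figure D4:**
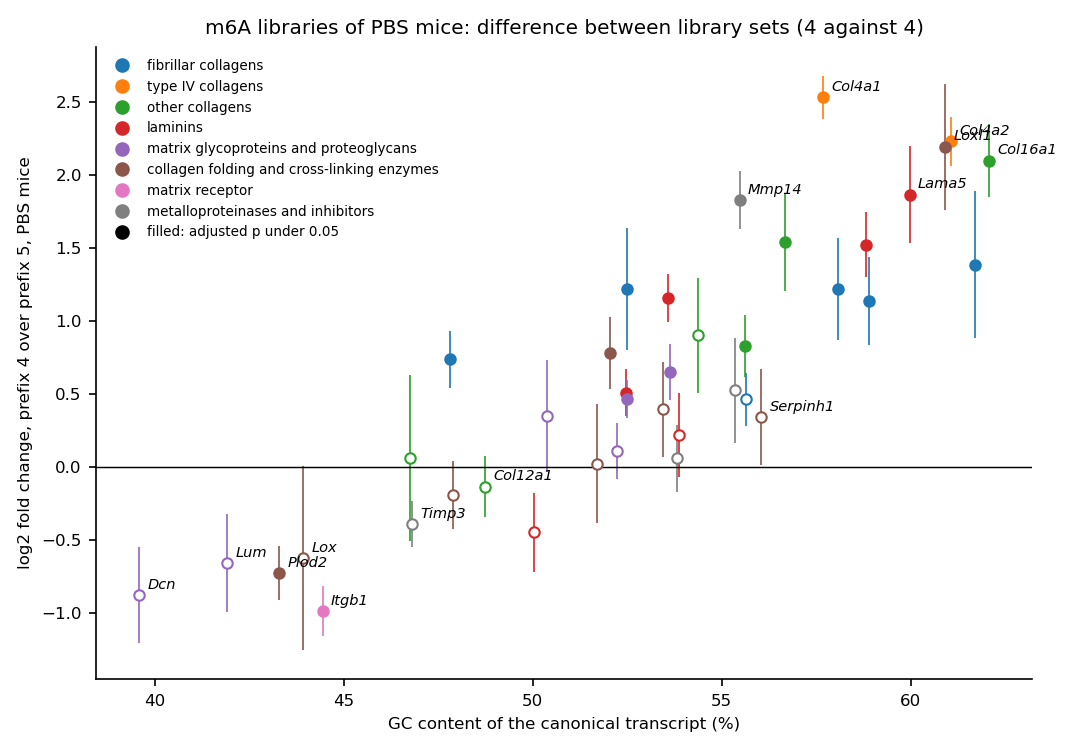
Log2 fold change of set 4 over set 5 in m6A libraries of PBS mice (y axis, with SE, 4 libraries against 4) against the percentage of G and C in the canonical transcript (x axis) for the 39 genes, coloured by group and filled where the adjusted p was under 0.05. Values climb from -0.99 for Itgb1 at 44.4% to above 2 for Col4a1, Col4a2, Loxl1 and Col16a1 at 57.7% to 62.1%.

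The set difference went with base composition. Over the 39 members, Pearson's r between the GC content of the canonical transcript (39.6% to 62.1%) and the log2 difference was 0.869 and Spearman's rho 0.856, and over 14721 genes 0.551 and 0.571. The 19 members higher in set 4 had a median GC content of 56.7% and the other 20 a median of 50.2%. These are descriptions across genes, which are not independent. For KA against PBS, Spearman's rho between GC content and the log2 fold change of the members was 0.144 and -0.286 in m6A libraries at 24 hours and 2 weeks, and 0.606 and 0.538 in input. Over all genes it was -0.016, -0.337, 0.182 and 0.468. The part of base composition in the KA differences was not tested.

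Within a library set, some 24-hour differences passed the threshold. In set 4 alone (KA mice 97 and 79, PBS mice 71 and 73), 4 of 39 members were higher at an adjusted p under 0.05 (2.11% of all genes): Loxl1 (2.27 ± 0.24, adjusted p = 0.0125), Col16a1 (1.60 ± 0.22, adjusted p = 0.0208), Serpinh1 (1.38 ± 0.20, adjusted p = 0.0263) and Col5a3 (2.27 ± 0.37, adjusted p = 0.0396). The median of the 39 was 0.42 there. Col12a1 was at 0.79 ± 0.17, adjusted p = 0.0711, short of the threshold. Over all sets without mouse 8, Col5a3 alone passed (2.50 ± 0.41, adjusted p = 0.0429; 0.279% of genes). At 2 weeks no member and 0% of genes passed within set 5 of the m6A libraries, where 32 of 39 estimates were above 0 with a median of 0.29, or within the input libraries whose names lack the word input (3 KA and 3 PBS), where 31 of 35 were above 0 with a median of 0.73.

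The 24-hour input result depended on mouse 8 and on the single control. Without mouse 8, 14 of 37 members were higher at an adjusted p under 0.05 (13% of all genes), among them Col16a1 (3.64 ± 0.29, adjusted p = 0.00110), Col4a1 (2.32 ± 0.20, adjusted p = 0.00162), Col4a2, Serpinh1, Col5a3, Lamb2, Lama5, Lamc1, Mmp14, Sparc and Timp2. That fit compares 2 KA mice with 1 PBS mouse and assumes that the lone control varies as the KA mice do. With the 3 PBS input libraries of 2 weeks added as controls, 4 of 37 passed (1.13% of genes): Col5a3, Lama5, Col12a1 and Loxl1. With those controls and without mouse 8, 16 were higher and 1, Dcn, was lower (15.8% of genes). Col5a3 (3.68 ± 0.41, adjusted p = 0.000558) and Col4a1 (2.13 ± 0.16, adjusted p = 6.19e-05) were among the 16. These controls differ from the KA mice in time after injection.

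KA mouse 42 stood above the other KA mice at 2 weeks. It had the highest KA value for 27 of 39 members in m6A libraries and for 25 of 39 in input, and for 21 in both. Relative to the median of the other 5 KA mice, its log2 level over the members had a median of 0.98 in m6A libraries and 0.67 in input, and 33 members were above 0 in both. Without it, the members' median log2 fold change at 2 weeks was 0.04 in m6A libraries and 0.28 in input, where 30 of 35 estimates were still above 0. In that input fit Col4a1 was at 0.89 ± 0.25, adjusted p = 0.315 and Col6a3 at 1.97 ± 0.65, adjusted p = 0.361. Some marker sums were also highest in this mouse among the KA mice. Its astrocyte sum was 7779 CPM in m6A libraries and 8380 in input, its microglial sum 756 and 564, and its mural sum 311 and 251. Its sum of hippocampal markers was the highest too, at 2045 and 2062. Its fibroblast, endothelial, macrophage and neuron sums were not the highest in either assay. Across the members, Spearman's rho between GC content and the offset of mouse 42 was 0.733 in m6A libraries and 0.506 in input, and over all genes 0.698 and 0.288. The part of these cells and of base composition in the offset was not tested.

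**Figure D5:**
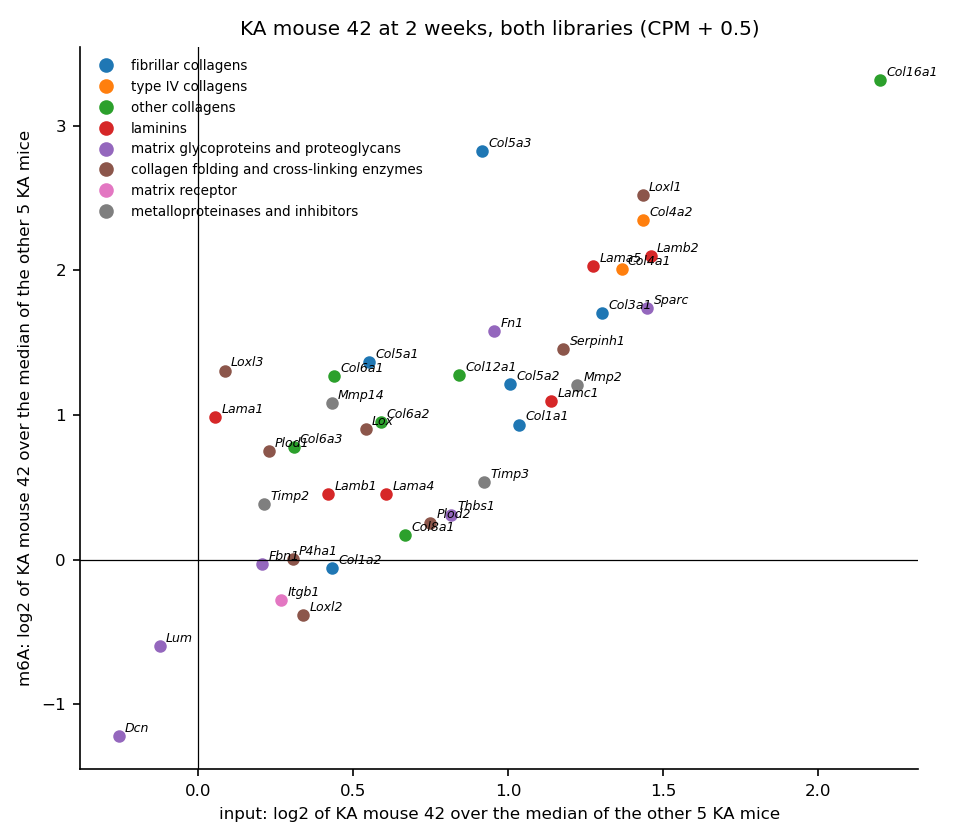
Level of each of the 39 genes in KA mouse 42 over the median of the other 5 KA mice at 2 weeks, as log2 of CPM plus 0.5, in input (x axis) and m6A libraries (y axis), coloured by group. Of the 39 points, 33 lie above 0 on both axes, with Col16a1 farthest out, and Dcn and Lum lie in the lower left.

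Markers of cells that make matrix were read beside these values, and none of the listed markers was at 0 across a comparison. The 14 leptomeningeal fibroblast markers summed to 44.9 to 99.1 CPM after KA and 43.1 to 100.6 in PBS in m6A libraries at 24 hours, and to 51.2 to 145 and 51.6 to 142 at 2 weeks. The 12 mural cell markers gave 132 to 234 and 129 to 221 at 24 hours, and 172 to 311 and 128 to 200.5 at 2 weeks. The 12 endothelial markers gave 451 to 576 after KA and 310 to 376 in PBS at 24 hours, which do not overlap, and 361 to 1176 and 228 to 424 at 2 weeks. In input at 2 weeks the fibroblast sums were 43.2 to 109 and 60.5 to 68.9, the mural sums 150 to 251 and 144 to 166, and the endothelial sums 555 to 1086 and 764 to 1143. Input at 24 hours had a fibroblast sum of 42.8 to 75.2 after KA against 34.4, a mural sum of 118 to 165 against 86.3 and an endothelial sum of 541 to 1455 against 828.9. No marker of these 3 lists passed an adjusted p of 0.05. Choroid plexus markers varied widely in both groups, from 693 to 2949 after KA and from 543 to 1531 in PBS in m6A libraries at 24 hours. Microglial markers at 2 weeks were 245 to 564 after KA and 179 to 242 in PBS in input, without overlap, and 280 to 756 and 206 to 326 in m6A libraries. Of their 12 markers, 6 were higher in input at an unadjusted p under 0.05 and 4 in m6A libraries. The 12 astrocyte markers at 2 weeks summed to 3490 to 8380 after KA and 2472 to 4246 in PBS in input, and to 2874 to 7779 and 2236 to 4073 in m6A libraries, with 5 and 3 higher at that p. At 24 hours astrocyte sums in m6A libraries were 1619 to 5250 after KA and 3279 to 3982 in PBS, the lowest in mouse 8. The 11 neuron markers summed there to 2934 to 7100 after KA and 6207 to 8095 in PBS, and at 2 weeks to 4477 to 6325 and 5014 to 8023 in m6A libraries and 3846 to 6343 and 4022 to 4792 in input. Macrophage, blood and oligodendrocyte sums overlapped between the groups in the comparisons with more than 1 control, and mouse 8 had a macrophage sum of 141 CPM in its m6A library against 26.1 to 44.4 in the other KA mice at 24 hours. The part of these cells in the matrix values was not tested.

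The wider matrix gene list, 137 genes of further collagens, laminins, receptors, enzymes and fibre proteins, was read the same way. None of the 129, 124, 134 and 100 tested in m6A libraries at 24 hours and 2 weeks and in input at 24 hours and 2 weeks passed an adjusted p of 0.05 in edgeR. DESeq2 called 4, 0, 0 and 1 of them, while voom called 24 higher and 4 lower in the first, none in the second, 15 higher in the third and 3 higher in the last. At an unadjusted p under 0.05, 17 were higher and 4 lower, 11 and 2, 12 and 1, and 20 and 1. Their median log2 fold changes were 0.42, 0.15, 0.94 and 0.35.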

How the data were processed

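Hippocampal RNA of KA and PBS mice was sequenced as m6A-enriched and total RNA. The authors deposited raw read counts per gene symbol and sequencing lane, with replicates not pooled, on the mm10 build per the submitters' processing notes. The kit was stranded. The aligner, counter, annotation and strand setting were not given in the sources used here. The 4 lanes of each of 35 libraries were summed, and 8 further columns that matched no label were not used. The assay of 27 libraries was read from the form of the column name, and 8 names state it. Library totals ran from 1652933 to 34564536 counts (m6A, n = 19) and, after 3 input libraries under 100000 counts were left out, from 3057578 to 12694434 (input, n = 13). The level given as worth 3 counts covers counting error only, and the SD and SE cover the spread between mice.

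The test was the robust quasi-likelihood test of edgeR 4.0.16 (R 4.3.3), after filterByExpr and TMM normalization (Benjamini-Hochberg over all genes passing the filter, threshold 0.05), with KA and PBS of 1 time and assay in each fit. The single 24-hour PBS input library was assumed to vary as the KA libraries do. Alternatives were voom of limma 3.58.1, weighted by sample quality, DESeq2 1.42.0, other scaling and filters, the library set as a block, leaving out each library, and others named beside their values. The tests were tested on simulated data first. Each m6A library and the input library of the same number come from 1 mouse by the labels, and over the 9 mice with both at 2 weeks the correlation of their deviations from group means ran from -0.026 to 0.502 (median 0.15). The least different pair of replicate libraries had a chi-square per degree of freedom of 5.122, so none was counted as a repeat of another.

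The members and gene lists were chosen with earlier results of these data known. Values are given in each comparison, per library or, for the 6 KA libraries at 2 weeks, as the lowest, median and highest, for Col1a1, Col1a2, Col3a1, Col4a1, Col4a2, Fn1, Lama5, Lamc1, Lamb1, Lox, Serpinh1, Thbs1, Itgb1, Timp2, Mmp14, Sparc and Dcn, and for the 3 members with the smallest p. Other members named with values were chosen after those values were seen. Comparisons within library sets, the comparison of the sets, the 24-hour input fit with PBS of both times and without mouse 8, and the fit of mice with both libraries and no block were added after the data were examined. Promoter sequences and gene coordinates are those of RefSeq on GRCm38.p6, and transcript lengths and GC content those of the GENCODE canonical transcripts.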

Additional observations from a re-analysis of the deposited data

Results flagged for a closer look

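Dixon's test was run for 21 of the members only, in 84 groups of 5 or 6 libraries. Of these groups, 8 held a library far from the others, which chance alone gives in about 1 in 20 groups. The remaining members were not examined, so these counts do not describe them. KA mouse 42 accounted for 6 of the 8. In m6A libraries at 2 weeks its Col3a1 was 21.86 CPM against 5.018 to 8.90 in the other KA mice. Its Col4a2 there was 95.91 against 5.227 to 37.81, its Col5a3 7.55 against 0.4879 to 1.71, its Loxl1 8.118 against 0.6334 to 2.21, and its Serpinh1 30.09 against 2.161 to 12.28. In input libraries its Sparc was 313.1 CPM against 78.69 to 152.3. KA mouse 8 had Col6a3 at 15.26 CPM in m6A libraries at 24 hours, where the other KA mice were at 2.69 to 5.876. PBS mouse 4 had Lox at 3.972 CPM in m6A libraries at 2 weeks, against 0.529 to 0.9792 in the other PBS mice. Some members not examined also stood apart. In m6A libraries at 24 hours mouse 8 had Col6a2 at 55.4 CPM, against 11.21 to 14.45 in the other KA mice. Its Loxl2 was 55.2 against 7.28 to 11.09, and its Plod1 76.78 against 22.42 to 32.71. Mouse 42 had Col16a1 at 51.69 CPM in m6A libraries at 2 weeks, against 1.742 to 9.575 in the other KA mice. In input at 2 weeks its Col16a1 was 26.67 against 4.298 to 8.004.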

How the results depend on the processing

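The count of members past the adjusted threshold was 0 in edgeR for each of the 6 contrasts, and alternatives changed it in 3. In m6A libraries at 24 hours it was 2 with DESeq2, 9 with voom, 4 within library set 4, and 0 to 1 with each library left out, the 1 being without KA mouse 8. In input at 24 hours it was 11 with voom, 15 with the library set as a block, 2 with all labelled input libraries, 4 with PBS of both times, 17 with those controls and without mouse 8, and 0 to 14 with each library left out, the 14 being without mouse 8. In that comparison mouse 8 was the only library of its set. The block and leaving mouse 8 out therefore give nearly the same estimates (Col4a1 at 2.34 and 2.32) and are not separate checks. In input at 2 weeks voom called 1. The other alternatives tried left these 6 counts at 0. Some estimates changed sign; only changes involving an estimate over 1 SE from 0 are given. In m6A libraries at 24 hours Timp2 was -0.20 with voom and -0.39 within set 4. At 2 weeks, with the set as a block, Col4a1 was 1.10, Lamc1 0.50 and Mmp14 0.50, and within set 5 Col4a1 was 1.118, Col4a2 0.53, Lamc1 0.52 and Mmp14 0.51, while Dcn was -0.046 with voom. Lamb1 in input at 24 hours was 0.23 with PBS of both times and without mouse 8, and the assay difference of Col4a1 was 0.20 in mice with both libraries and no block. The cause of these changes was not tested.

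Over all genes, edgeR called 1 in m6A libraries at 24 hours, against 156 with DESeq2, 1120 with voom, 22 without a filter, 31 with all m6A libraries in 1 fit, 3 with library size scaling, 0 with the set as a block, 45 without mouse 8 and 356 within set 4. In m6A libraries at 2 weeks it called 0, against 15, 2 and 2 with DESeq2, voom and no filter. In 24-hour input it called 0, against 8, 595 and 3 with those, 2783 with the block, 1914 without mouse 8, 75 with all labelled libraries, 160 with PBS of both times and 2234 with those and without mouse 8. In 2-week input it called 0, against 113, 342 and 4 with DESeq2, voom and no filter. For the change between times the counts were 1, 5 and 62 with edgeR, DESeq2 and voom, and for the assay difference 0 and 4 with edgeR and DESeq2. With the mouse as a replicate block (9 mice, 18 libraries, 15722 genes) the assay difference called 1 gene and 0 members, with a members' median of -0.11. The pairing changed no call of a member. At an unadjusted p under 0.05 the fit with the block had 0 members higher and 2 lower (671 of all genes in either direction), so Dcn was not higher in it at that p. In the same mice without the block, 0 members lay under that p (371 genes). The 24-hour input comparison has 1 control, and Lox, Loxl1, Col5a3 and Mmp2 lie near the depth limit in input.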
